A study of Mus musculus with 4 samples.

Results

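The STAT proteins (signal transducers and activators of transcription) analysed here are the products of Stat2, Stat3, Stat4, Stat5a, Stat5b and Stat6. Their genes were found on the array by matching the transcript of every non-control probe to a RefSeq gene table, which gave 9 of 41173 probes and 6 of 18749 named genes. Stat2, Stat3, Stat4 and Stat5a had 1 probe each, Stat5b had 2 and Stat6 had 3. All 9 probes were well above background on all 4 arrays, so no value below is a bound for a Stat gene.

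The arrays came from a study of Bach2, a transcriptional repressor of lymphocytes, in Th cells of C57BL/6J mice, and each was hybridized with RNA of 1 culture condition. Naive CD4 T cells (CD44 low, CD62L high, CD25 negative) from spleens of mice labelled female were primed for 2 days with immobilized anti-TCR-β mAb at 3 µg/ml and anti-CD28 mAb at 1 µg/ml. They were then kept for 3 days in the cytokine condition called IL-2, labelled as 2.5 ng/ml, a dose for which the study's methods give a higher value. The 4 conditions were WT cells and cells labelled Bach2 KO, each without further treatment (before re-stimulation) and after 4 h on immobilized anti-TCR-β mAb with no exogenous IL-2 (after re-stimulation). KO cells were of the genotype Bach2 flox/flox × CD4-Cre TG, in which the Cd4 promoter drives Cre, so that any deletion is limited to cells in which that promoter has been active. For WT cells the labels give no Cre status, while the study elsewhere calls CD4-Cre mice its WT controls. The mice were young adults, and how many gave cells for an array is not given in the sources used here. With 1 array per condition no difference below has a replicate check or a test, and p-values are not given.

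STAT proteins wait in the cytoplasm until a cytokine receptor is engaged. The receptor-bound Janus kinases then phosphorylate them, and the paired STATs enter the nucleus and bind DNA. In helper T cells the members divide the cytokines among them. Stat2 joins Irf9 in the complex that answers type I interferon, Stat3 serves IL-6, IL-10 and IL-21, Stat4 serves IL-12 in Th1 cells, Stat5a and Stat5b serve IL-2 and IL-7, and Stat6 serves IL-4 and IL-13 in Th2 cells. The arrays read mRNA and carry no information on phosphorylation, by which these proteins are switched on.

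On chromosome 11 of the mouse, Stat5b, Stat5a and Stat3 are direct neighbours, while Stat2 and Stat6 lie on chromosome 10 and Stat4 on chromosome 1. The 250 bases before each annotated start (RefSeq, GRCm38.p6) were searched on both strands for the binding letters of the interferon complex (GAAA, then 2 bases of any kind, then GAAA, an interferon-stimulated response element or ISRE), of STAT dimers (TTCNNNGAA, a gamma-activated site) and of AP-1 (TGAGTCA), a site class that Bach2 also binds. The 6 genes had 9 such windows. The ISRE letters were found in 2 of 9 windows, those of Stat2 and of the second annotated start of Stat4, against 2.98% of 32851 windows of all genes. The gamma-activated site letters were in 0 of 9 windows (7.02% of all windows), and the AP-1 letters were likewise in 0 of 9 (4.46% of all windows). As a gauge of the ISRE letters, 7 of 17 windows of interferon-stimulated genes (41.2%) held them. The other annotated start of Stat4 had no match. The windows with a match are shown because Stat2 and Stat4 are also the members that differed most between the genotypes, by the probe read for each gene. The first lies at chr10:128270248-128270497 on the plus strand and the second at chr1:52007990-52008239 on the plus strand. Capitals mark the match, which begins at position -222 in Stat2 and -97 in Stat4, counted from the annotated start.
Stat2 promoter: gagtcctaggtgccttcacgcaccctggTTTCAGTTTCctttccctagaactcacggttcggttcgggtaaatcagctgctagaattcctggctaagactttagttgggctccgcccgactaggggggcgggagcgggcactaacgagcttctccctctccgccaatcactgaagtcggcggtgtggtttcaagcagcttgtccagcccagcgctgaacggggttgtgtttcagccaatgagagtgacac
Stat4 promoter, second start: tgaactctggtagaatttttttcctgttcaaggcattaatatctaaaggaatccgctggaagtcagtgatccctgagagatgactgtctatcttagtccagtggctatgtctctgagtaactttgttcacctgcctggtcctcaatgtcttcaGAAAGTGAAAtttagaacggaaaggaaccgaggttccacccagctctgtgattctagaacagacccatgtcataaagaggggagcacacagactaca
A match of letters is a description of the window and not evidence of binding.

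Values are given on 2 scales. The signal is the background-corrected brightness of a probe on 1 array, averaged over its spots. The level is the log2 signal minus the 75th percentile of that array, which was between 313 and 436 in signal, and differences between arrays are differences of levels on the log2 scale. A probe's signal depends on its sequence, so levels were compared between arrays for 1 probe and never between genes. As a yardstick of probe error, different probes of a gene disagreed by a median SD of 0.09, 0.11, 0.15 and 0.14 (log2, 3852 genes) for the difference between genotypes before and after re-stimulation and for re-stimulation in WT and in KO cells, in that order. In this mixed RNA, fewer cells of a type and less RNA per cell cannot be told apart.

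The Stat genes differed little between genotypes before re-stimulation, Stat2 and Stat3 being the higher in KO cells and Stat4 and Stat6 the lower. After re-stimulation Stat4 was past 2-fold between the genotypes, lower in KO cells, and by the probe read for each gene no other member was. A dim probe, 1 of the 3 of Stat6, was past 2-fold as well, though not in every way of processing. Re-stimulation itself was accompanied by Stat5a levels 9.01-fold higher in WT and 10.3-fold higher in KO cells. Before re-stimulation 0 of 6 Stat genes were past 2-fold between KO and WT, where 5.27% of the 12105 genes measured were 2-fold higher and 2.83% lower. After it 0 were 2-fold higher and 1 was 2-fold lower, where 5.17% and 3.86% of 12341 genes were. For re-stimulation 1 of 6 was past 2-fold in WT cells and 1 of 6 in KO cells, both times Stat5a and both times higher. Of all genes measured, 13.3% were 2-fold higher and 13.7% lower in WT cells, and 12.5% and 13.1% in KO cells. The median differences of the 6 genes were -0.06 and -0.11 between the genotypes, before and after re-stimulation, and 0.70 and 0.34 for re-stimulation in WT and KO cells. Those of all genes lay between -0.02 and 0.02. All 6 Stat genes were above 0 for re-stimulation in WT cells, and 4 of 6 in KO cells.

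**Figure D1:**
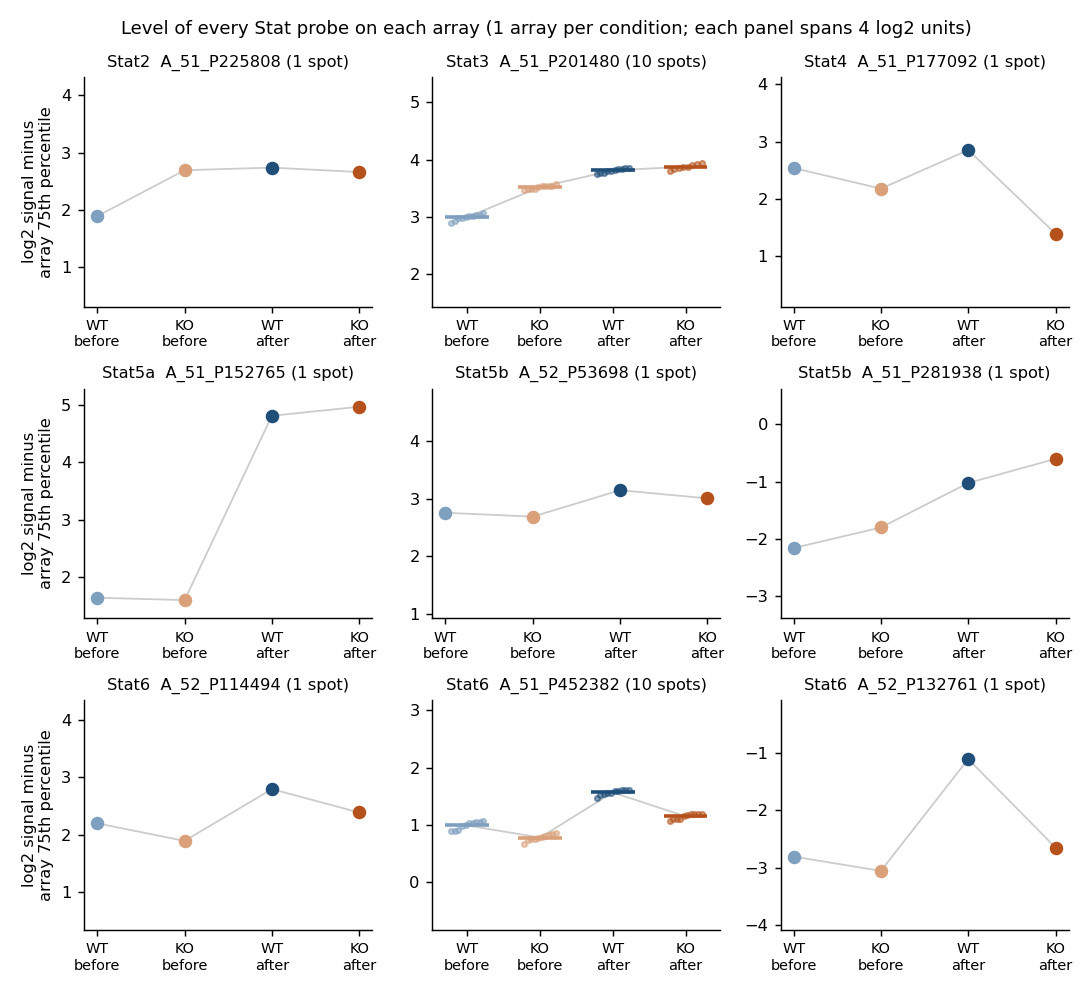
Level (log2 signal minus the 75th percentile of the array) of each of the 9 Stat probes on the 4 arrays; large points are probes with 1 spot, and small points are the spots of probes with 10, with a bar at their mean. Stat5a stands at 1.64 and 1.60 before and at 4.81 and 4.97 after re-stimulation, and Stat4 is lowest on the KO array after re-stimulation, at 1.40.

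Stat2, the interferon partner of Irf9, was lowest on the WT array before re-stimulation and nearly level on the other 3 arrays. Its probe (A_51_P225808, transcript NM_019963) gave signals of 1618 in WT and 2804 in KO cells before re-stimulation and of 2084 and 2228 after it. The levels were 1.89, 2.69, 2.74 and 2.66 in the same order. The genotypes thus differed by 0.80 before re-stimulation, 1.74-fold, and by -0.08 after it, which is less than the median disagreement between probes. Re-stimulation was accompanied by a difference of 0.85 in WT cells and of -0.03 in KO cells. Over the other ways of processing these ranged from 0.55 to 1.14 and from -0.30 to 0.22, so the KO difference has no firm sign. The gap between the genotype differences before and after re-stimulation, -0.88, was matched or exceeded in size by 7.9% of 11502 genes.

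The interferon-stimulated genes, which Stat2 complexes switch on, had the same lowest array. Of the 17 genes of that list well above background on all 4 arrays, all 17 were lowest on the WT array before re-stimulation, where 28.6% of all genes were. The genotype difference was lower after re-stimulation than before it in 17 of 18 list genes, with a median change of -1.50, where it was lower in 50.6% of genes. Irf9 itself, the DNA-binding partner of Stat2, gave signals of 1194 and 2067 before and 1607 and 1850 after re-stimulation. Its differences, 0.80 and 0.03 between the genotypes and 0.91 and 0.14 for re-stimulation, were close to those of Stat2 at each point. Many target genes differed by more than Stat2. Rsad2, an antiviral enzyme, differed by 3.94 between the genotypes before and by 1.37 after re-stimulation, while its 3 probes spread from 1.52 to 3.94 and from 1.20 to 1.60. Ifit1, a sensor of viral RNA, differed by 3.26 and -0.06. Of the 18 genes, 13 were 2-fold higher in KO cells before re-stimulation and 4 after it, and none was 2-fold lower at either time. Of the 13, Ifi44 was well above background in KO cells alone before re-stimulation, so it could only come out higher. Of all genes measured, 5.27% and 5.17% were 2-fold higher and 2.83% and 3.86% lower. Genes of this list are switched on together, so these counts describe 1 co-varying set on 4 arrays. The type I interferon receptor chains Ifnar1 and Ifnar2 were not higher in KO cells at either time. Ifnar1 differed by -0.05 before and -0.50 after re-stimulation, and Ifnar2 by -0.47 and -1.02, while the other Ifnar2 probe gave -0.31 and -0.40.

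Stat3, which passes on IL-6, IL-10 and IL-21, was also lowest on the WT array before re-stimulation. Its probe (A_51_P201480, transcript NM_213659) was printed at 10 spots per array, 2 of which were left out on the KO array after re-stimulation, so the scatter between spots is known. Signals were 3481 in WT and 4984 in KO cells before and 4384 and 5183 after re-stimulation, and levels were 3.00, 3.52, 3.81 and 3.88. KO cells were 0.52 ± 0.02 (SE over spots) higher before re-stimulation, 1.44-fold, with no overlap between the spots of the arrays. After re-stimulation they differed by 0.07 ± 0.02 and the spots overlapped. For re-stimulation the differences were 0.81 ± 0.02 in WT and 0.36 ± 0.02 in KO cells, without overlap. The spots share 1 hybridization and their error says nothing of other cultures.

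Among genes that Stat3 is known to drive, 3 of 9 measured were 2-fold higher in KO cells before re-stimulation and 6 of 11 after it, and none was 2-fold lower. Of those counted, Il10 before and Il17a after re-stimulation were well above background in KO cells alone, so they could only come out higher. Of all genes measured, 5.27% and 5.17% were 2-fold higher at these times and 2.83% and 3.86% lower. Maf, a transcription factor of IL-4 and IL-21 production, gave signals of 57.2 and 1432 before and 123 and 2391 after re-stimulation, differences of 4.65 and 4.10. Its other probe was too dim to be measured on the WT arrays and gave differences of at least 1.64 and 2.40. Prdm1, the gene of the repressor Blimp-1, differed by 1.31 and 1.98. Ligands of this pathway are given next, of which Il21 and Il10 also belong to the target genes just counted. Il10 is on the lists of Stat4 and Stat5 targets too. Il6 was near background in KO cells before re-stimulation, with a signal of 23.0, and reached 7938 in KO cells against 85.4 in WT cells after it, a difference of 6.36. Il21, at 470 against 23.4 after re-stimulation, differed by 4.15. Il10, which was too dim to be measured on the WT array before re-stimulation, was at least 4.65 higher in KO cells there and 5.85 higher after it. The receptor chain for IL-6, Il6ra, went the other way, at 210 in WT and 40.9 in KO cells before re-stimulation, a difference of -2.35. Il6st, the shared signalling chain, differed by -0.51 and -0.29. Socs3, the feedback inhibitor of the IL-6 receptor, differed by 0.37 before and 1.34 after re-stimulation.

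Stat4, the Th1 factor downstream of IL-12, was the Stat gene with the largest genotype difference by the probe read for each gene, though a dim Stat6 probe differed by -1.54 after re-stimulation. Signals of its probe (A_51_P177092, transcript NM_011487) were 2539 in WT and 1972 in KO cells before re-stimulation and 2262 and 929 after it. Levels of 2.54, 2.18, 2.86 and 1.40 place the KO array after re-stimulation below the other 3. KO and WT cells differed by -0.36 on the log2 scale before re-stimulation, 1.28-fold lower in KO cells, and by -1.46 after it, 2.75-fold lower. In the latter comparison 1.68% of genes were as low or lower. Re-stimulation was accompanied by a difference of 0.31 in WT and of -0.79 in KO cells. With scaling to the median these were 0.017 and -1.05, so the sign of the WT difference is not firm. The gap between the genotypes in this response was -1.10, and 4.96% of 11502 genes had a gap as large in either direction. A single probe at a single spot carries this result, so neither the scatter between spots nor the disagreement between probes is known for Stat4.

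The genes whose profile over the 4 arrays was most like that of Stat4, by the root mean square distance between levels centred on each gene's mean, were Sft2d2 (0.05), D630039A03Rik (0.08) and Tut4 (0.10), among 10810 genes. Sft2d2 gave signals of 2623, 2157, 2591 and 992, and its genotype differences were -0.28 and -1.56. Tut4, a terminal uridyltransferase, differed by -0.33 and -1.19.

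In the IL-12 pathway the receptor chains and targets did not share one direction with Stat4. Il12rb1, the chain that IL-12 and IL-23 share, was 2.07 higher in KO cells before re-stimulation, with signals of 4666 and 19501, and 0.89 higher after it. Il12rb2, the chain specific to IL-12, gave signals of 142, 184, 266 and 178 and differed by 0.39 and -0.76. Of 8 Stat4 target genes 3 were 2-fold higher in KO cells before re-stimulation and none lower, where 5.27% and 2.83% of all genes were. Of these 3, Il10 and Hlx were well above background in KO cells alone, so they could only come out higher. The median over the 8 genes was 0.57 before and -0.10 after re-stimulation. After it 2 of the 8 were 2-fold higher in KO cells and 1, Il18r1, lower (-1.04), against 5.17% and 3.86% of all genes. Higher were Il10 and Hlx, a Th1 homeobox factor too dim to be measured on the WT arrays, at least 3.45 higher. Ifng, the main Th1 cytokine, rested on signals of 350 and 1175 before and 158625 and 167603 after re-stimulation. Its genotype difference was 1.75 before and -0.09 after re-stimulation, when Stat4 was lowest in KO cells, and the other Ifng probe gave 0.32 there. Tbx21, the Th1 master factor T-bet, differed by -0.18 and -0.27 between the genotypes and by 2.98 and 2.90 for re-stimulation. Kinases of this receptor, Jak2 and Tyk2, differed by 0.35 and 0.15 between the genotypes after re-stimulation, though the other Jak2 probe gave -0.16.

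**Figure D2:**
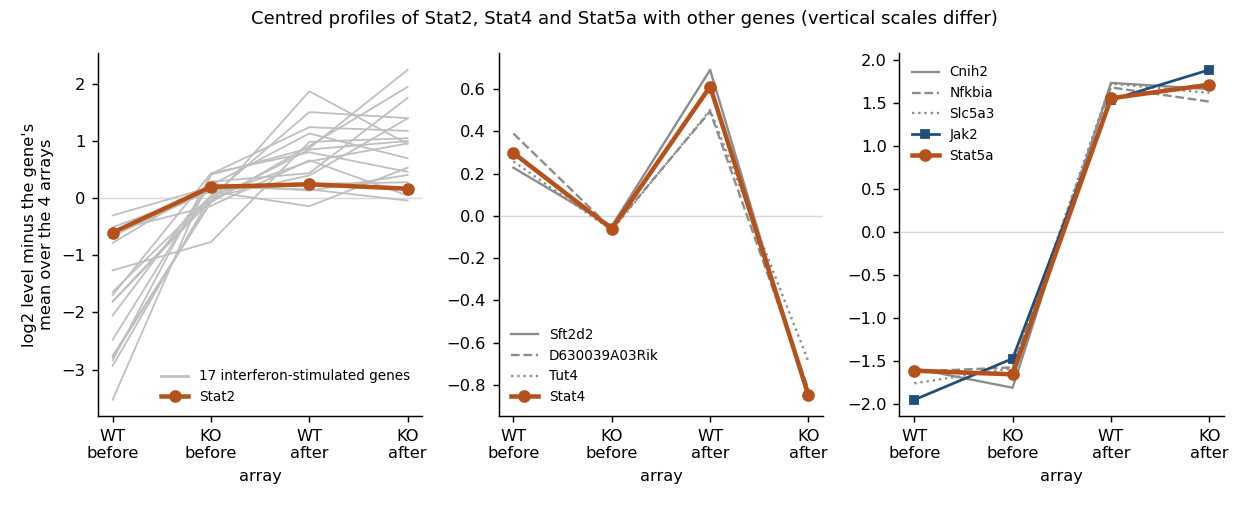
Level of each gene minus its mean over the 4 arrays (log2), one line per gene: Stat2 with 17 interferon-stimulated genes (left), Stat4 with the 3 genes of nearest profile (middle), and Stat5a with its 3 nearest and Jak2 (right). All 17 interferon-stimulated genes are lowest on the WT array before re-stimulation, as Stat2 is at -0.60; Stat4 is at -0.85 on the KO array after re-stimulation; and Stat5a and Jak2 lie below -1.4 before and above 1.5 after it.

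Stat5a, which together with Stat5b serves the IL-2 receptor, had the largest differences of the family, and they followed re-stimulation in both genotypes. The probe (A_51_P152765, transcript NM_011488) gave 1359 in WT and 1314 in KO cells before re-stimulation and 8772 and 11039 after it. On the log2 scale the differences for re-stimulation were 3.17 in WT cells, 9.01-fold, and 3.37 in KO cells, 10.3-fold. Of all genes measured, 1.99% were as high or higher in WT cells and 1.57% in KO cells. Between the genotypes the differences were -0.04 before and 0.16 after re-stimulation, close to the disagreement between probes of a gene. The spread of Stat5a over the arrays thus followed the treatment, with genotype differences far smaller than those for re-stimulation.

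Its neighbour Stat5b did not move with it to that extent, and its probes disagreed on the size. The brighter probe (A_52_P53698, transcript NM_011489) gave nearly flat signals of 2949, 2801, 2776 and 2838, with re-stimulation differences of 0.39 in WT and 0.32 in KO cells and genotype differences of -0.07 and -0.14. The dimmer probe (A_51_P281938, same gene) gave 97.9, 125, 154 and 233, with re-stimulation differences of 1.13 and 1.20, past 2-fold, and genotype differences of 0.36 and 0.42. Over the other ways of processing its re-stimulation differences ranged from 0.63 to 1.43 in WT and from 0.85 to 1.45 in KO cells. Being past 2-fold is thus not firm for this probe. For re-stimulation both probes were above 0 in both genotypes. Their SD of 0.52 in WT and 0.62 in KO cells was well above the median of 0.15 and 0.14. For the genotypes they differ in sign, and no direction is given. By either probe the Stat5b difference for re-stimulation was under that of Stat5a by at least 2 log2 units. The transcripts of Stat5a and Stat5b are close paralogs and the probe sequences were not used here, so shared hybridization cannot be told apart from separate signals.

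Jak2, a Janus kinase of the IL-12, IFN-γ and GM-CSF receptors, had re-stimulation differences like those of Stat5a. Its signals were 910 in WT and 1262 in KO cells before and 7328 and 10537 after re-stimulation, differences of 3.49 and 3.36, and its other probe gave 3.24 and 3.08. The other kinases were not past 2-fold in any of the 4 comparisons. Jak1 and Jak3, the pair on the IL-2 receptor, differed for re-stimulation by -0.53 and -0.48 in WT cells and by -0.79 and -0.34 in KO cells. Nearest to Stat5a in profile among 10810 genes were Cnih2 (distance 0.12), Nfkbia (0.12), the gene of the NF-κB inhibitor IκBα, and Slc5a3 (0.13), a myo-inositol transporter. Nfkbia gave signals of 8221 and 8466 before and 58343 and 58702 after re-stimulation, differences of 3.31 and 3.09.

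Among genes known as Stat5 targets, 3 of 11 were 2-fold higher for re-stimulation and 3 were 2-fold lower in WT cells, and the counts were the same in KO cells. All genes were likewise spread over both directions, with 13.3% higher and 13.7% lower in WT cells and 12.5% and 13.1% in KO cells. Bcl2l1, the gene of the survival protein Bcl-xL, was 1.91 and 1.65 higher, its 3 probes spreading from 1.91 to 2.98 in WT and from 0.95 to 1.65 in KO cells. Bcl2, its relative, was lower, with differences of -1.18 and -1.99, and Socs2, a feedback inhibitor, differed by -1.60 and -2.16. Cish, the inhibitor most closely tied to Stat5, stayed within 0.38 of 0 in all 4 comparisons, with signals between 30565 and 34785. The ligand Il2 was at 17.5 and 5.7 before re-stimulation and at 37530 and 33743 after it. Il2ra, the alpha chain of its receptor, differed by 0.13 and 0.58 for re-stimulation by the probe read and by -0.62 and -0.24 by its other probe, so it has no direction. Il7r, the IL-7 receptor chain, was 3.08 and 1.88 higher in KO cells before and after re-stimulation, with signals of 494 and 4165 before and 616 and 2560 after it.

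**Figure D3:**
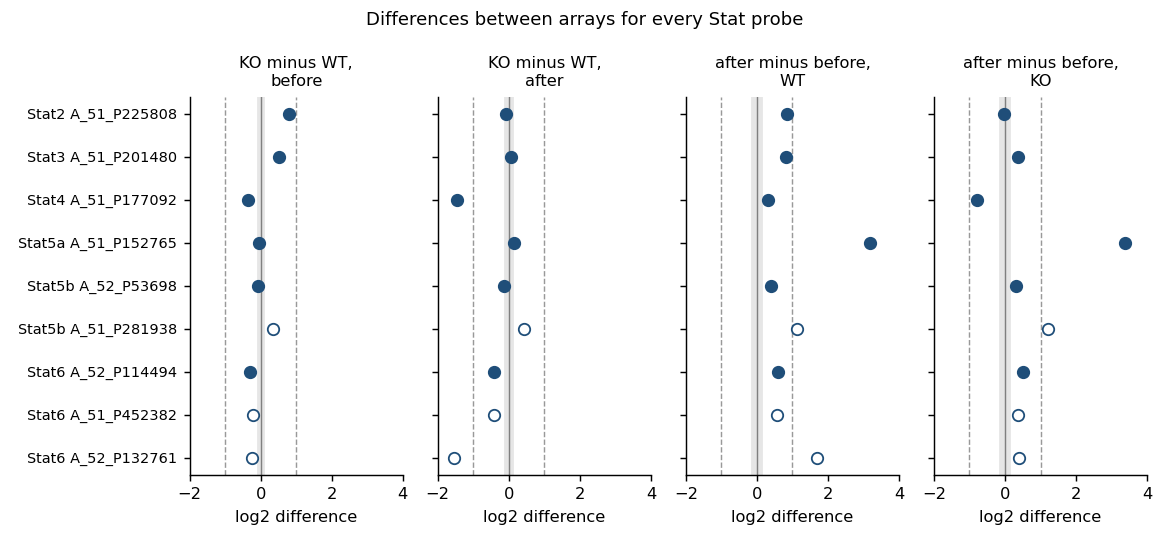
Log2 difference between arrays for each of the 9 Stat probes in the 4 comparisons; filled points are the probe read for the gene and open points its other probes, the grey band is the median SD between probes of a gene around 0, and dashed lines mark 2-fold. Stat5a lies at 3.17 and 3.37 for re-stimulation, and the open Stat6 point at -1.54 after re-stimulation lies apart from the other Stat6 probes at -0.41 and -0.42.

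Stat6, the IL-4 and IL-13 factor of Th2 cells, was lower in KO cells at both times by all 3 of its probes (transcript NM_009284), which disagreed on the size. The brightest (A_52_P114494) gave signals of 1997 in WT and 1608 in KO cells before and 2165 and 1841 after re-stimulation, genotype differences of -0.31 and -0.41. The probe with 10 spots per array (A_51_P452382) gave 867, 745, 926 and 782, differences of -0.21 ± 0.03 and -0.42 ± 0.02 (SE over spots), and the spots of the arrays did not overlap in any of the 4 comparisons. The remaining, dim probe (A_52_P132761) gave 62.4, 52.2, 145 and 56.2, differences of -0.25 and -1.54.

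The 3 Stat6 probes agreed before re-stimulation and in the KO response and disagreed wherever the WT array after re-stimulation entered. Their SD was 0.05 for the genotypes before re-stimulation and 0.06 for re-stimulation in KO cells, where the medians over genes were 0.09 and 0.14. It was 0.65 for the genotypes after re-stimulation and 0.64 for re-stimulation in WT cells, where the medians were 0.11 and 0.15. Re-stimulation differences in WT cells were 0.60 and 0.58 by the bright probes and 1.70 by the dim one, and in KO cells they were 0.49, 0.37 and 0.41. The dim probe is past 2-fold in 2 comparisons, both of which use its signal of 145 on the WT array after re-stimulation, read from 1 spot. With another background correction (normexp) and quantile normalization it was not past 2-fold in either. It then gave -0.97 for the genotypes after re-stimulation and 0.98 for re-stimulation in WT cells. All probes kept the same direction in all 4 comparisons.

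Most genes known to be driven by Stat6 were higher in KO cells, and Stat6 mRNA itself was not. Of 10 such genes 7 were 2-fold higher in KO cells before re-stimulation and 6 after it, and none was 2-fold lower. Of all genes measured, 5.27% and 5.17% were 2-fold higher at these times and 2.83% and 3.86% lower. The medians were 1.65 and 1.51, where those of all genes were -0.004 and 0.02. The count includes the cytokines Il4 (2.81 and 3.59), Il5 (at least 4.45, and 6.86) and Il13 (2.16 and 2.59), of which Il4 and Il13 encode ligands of this pathway. Gata3, the Th2 master factor, gave 5812 and 16740 before and 7569 and 15319 after re-stimulation, differences of 1.53 and 0.84. Il24, a cytokine of the IL-10 family, differed by 5.23 and 5.50. Batf3, an AP-1 factor, differed by 1.77 and 1.75. The receptor chain Il4ra did not follow, with signals of 32515, 39695, 20187 and 14018 and genotype differences of 0.29 and -0.70. Il13ra1, the other chain for IL-13, was well above background on no array but the KO array after re-stimulation, where its signal was 28.2. The list holds cytokines that are also tied to other factors, and Stat6 activity was not measured.

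**Figure D4:**
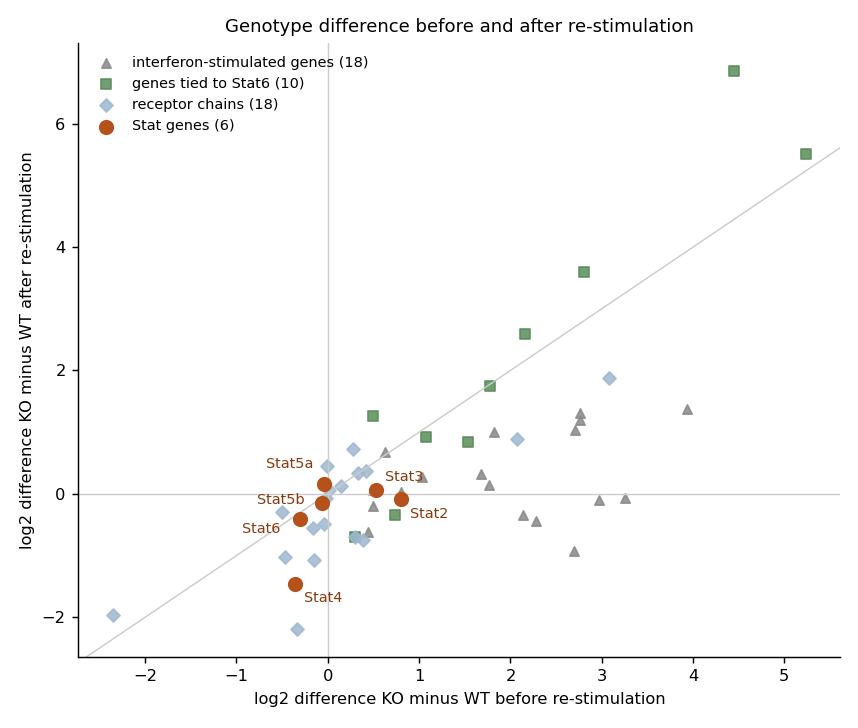
Log2 difference KO minus WT before (horizontal) and after re-stimulation (vertical) for the 6 Stat genes, 18 interferon-stimulated genes, 10 Stat6 target genes and the 18 receptor chains measured both times; the diagonal marks equal differences, and bounds are drawn at their value. The Stat genes lie between -0.36 and 0.80 before re-stimulation, interferon-stimulated genes lie mostly below the diagonal, and the Stat6 target genes reach 5.23 and 6.86.

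Counts over the rest of the pathway set the members beside their upstream parts. Of 21 receptor chains 19 were measured in each genotype comparison. Before re-stimulation 2 were 2-fold higher in KO cells and 1 was lower, near the 5.27% and 2.83% of all genes. After it 1 was higher and 4 were lower, where 5.17% and 3.86% of all genes were, among them Ifngr1, the ligand-binding chain for IFN-γ, at -2.19, and Ifngr2 at -1.08. Cytokine ligands were 2-fold higher in KO cells for 5 of 10 measured before and 9 of 15 after re-stimulation. The shares of all genes were 5.27% and 5.17%. Of those counted, Il5 and Il10 before and Il9 after re-stimulation were well above background in KO cells alone, so they could only come out higher. Il12a, at -1.16 after re-stimulation, was the 1 that was 2-fold lower, where 3.86% of all genes were. Of the 16 inhibitors 1 was 2-fold lower in KO cells before re-stimulation, the phosphatase gene Ptpn6 (-1.15), where 2.83% of all genes were, and 1 was 2-fold higher after it, Socs3, where 5.17% were. For re-stimulation 1 inhibitor was higher and 3 were lower in WT cells, and 2 and 4 in KO cells, where 12.5% to 13.7% of all genes were past 2-fold in each direction. Such counts lie near the shares over all genes and are no result about the inhibitors. Pias3, named as an inhibitor of Stat3, differed by -1.68 in WT and -1.70 in KO cells for re-stimulation, with signals of 291, 290, 64.9 and 72.6.

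Several facts about the arrays bear on every value above. All 4 lay on 1 slide, and 53.6% to 54% of probes were well above background. The Bach2 probe differed by -0.15 and -0.28 between the genotypes, which gives no clear check of the KO label. Y-linked Eif2s3y, Ddx3y and Kdm5d were well above background on the KO arrays and not on the WT arrays, and Uty was on none. The X-linked sex marker Xist was well above background on all 4 arrays. Its signals in WT and KO cells were 9525 and 4623 before and 5221 and 2585 after re-stimulation, differences of -1.04 and -1.19. All samples are labelled female, while the study's methods name both sexes for cultures. The sex of the cells behind each array is thus not settled, and sex and genotype cannot be told apart. All 7 T cell markers were within 2-fold in every comparison. Of 8 mast cell and basophil markers 5 were measured, and all 5 were 2-fold higher in KO cells at both times. Of all genes measured, 5.27% and 5.17% were. Cpa3, Mcpt8, Fcer1a and Cma1 at both times, and Prss34 after re-stimulation, were well above background in KO cells alone. Their differences are bounds that could only come out higher in KO cells, so the count has little weight. The summed signal of the 8 markers was 81.3 and 1207 before and 56.0 and 1034 after re-stimulation in WT and KO cells. Ms4a2, Mcpt4 and Tpsb2 were well above background on no array. NK, B and myeloid markers were mostly not above background, though Adgre1 was 1.16 and 1.56 higher in KO cells. Cd8a was measured on the KO array after re-stimulation alone, at a signal of 63.0. The part of any of these in the Stat values was not tested.

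**Figure D5:**
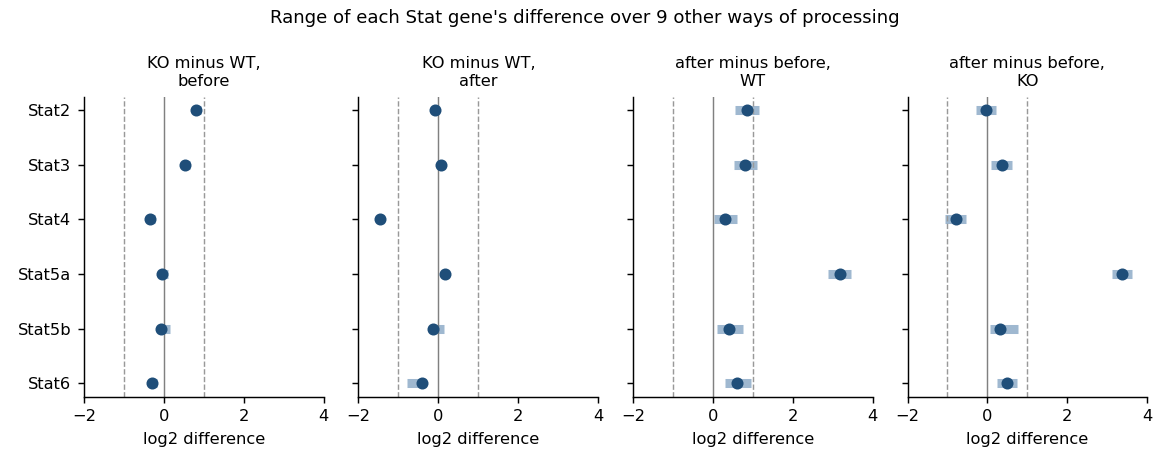
Log2 difference of each Stat gene in the 4 comparisons as reported (points) and its range over 9 other ways of scaling, background correction, probe choice and filtering (bars); dashed lines mark 2-fold. Stat4 between the genotypes after re-stimulation ranges from -1.49 to -1.36, and Stat5a for re-stimulation from 2.87 to 3.63 over both genotypes.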

How the data were processed

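RNA was hybridized to 4 Agilent arrays of the whole mouse genome with 1 dye (build mm9 per the file headers), 1 array per condition, and groups were taken from the sample labels. For each spot the authors deposited an intensity from Feature Extraction (version 10.7 per the labels, 10.7.3.1 per the file headers), background-subtracted and detrended, with flags for uneven, outlying, saturated and dim spots. A table that the authors deposited beside them holds log2 values, which for 41001 or more of 41173 probes per array match the scaled log2 intensity used here to within 0.01. It was used as an alternative.

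Here, flagged spots (107 to 120 of 43379 per array) were left out, log2 values of all spots of a probe were averaged, and each array was scaled by subtracting its 75th percentile. No probe was saturated. Transcript accessions named 27479 probes (66.7%) through a RefSeq table of GRCm38.p6, whose coordinates were not used for probes. A gene was read from its probe with the highest mean signal. In a comparison it was measured where that probe passed the background flag on 1 array or both, the dimmer value being raised to the array's lowest signal well above background (14.5 to 17.2). A gene that passed on 1 array alone could thus only come out higher on that array or be left out, and its difference is a bound. Precision is limited by the number of arrays. Genes were counted past 2-fold, with no test. The genes named are all Stat genes and probes, up to 4 of each pathway list past 2-fold, those with a textbook tie to a member, and, for members with a log2 range of at least 1, the 3 nearest profiles. A few further list genes, given for their known role, were named after their values had been seen. The members and lists were chosen with earlier results of these data known. Members of the family outside these 6 are not reported here. The scripts were tested on simulated data.

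Python 3.11.15, numpy 2.4.6, pandas 2.3.3, matplotlib 3.10.9, R 4.3.3 and limma 3.58.1 (normexp, offset 50) were used. Alternatives were scaling to the median, to Cd3e or to the 75th percentile of probes passing the background flag everywhere, quantile normalization with and without normexp, the authors' table, the mean over probes, other filters, and 1.5-fold and 3-fold counts.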

Additional observations from a re-analysis of the deposited data

Results flagged for a closer look

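The Stat4 differences for re-stimulation had opposite signs in the 2 genotypes, 0.31 in WT cells and -0.79 in KO cells, a gap of -1.10 between KO and WT cells. The difference was not tested, since there was 1 array per condition, and it rests on 1 probe. Over the other ways of processing, the WT difference ranged from 0.017 to 0.61 and the KO difference from -1.05 to -0.53. The signs thus stayed opposite, but the WT value came close to 0 with scaling to the median, so its sign is not firm.

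Among the interferon-stimulated genes, Ifit3, an antiviral protein, differed by 2.70 between KO and WT cells before re-stimulation and by -0.92 after it, a gap of -3.62. This difference was likewise not tested.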

How the results depend on the processing

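Over the other ways of processing, 68 of 80 counts and medians of the Stat genes and 231 of 288 values of single genes and probes stayed within the limits set for calling them equal. With scaling to the median, the median for re-stimulation became 0.41 in WT and 0.072 in KO cells and 2 genes were past 2-fold in KO cells (1 higher, 1 lower, Stat4). With scaling to Cd3e, the median became 0.083 between the genotypes before re-stimulation, 1.00 and 0.59 for re-stimulation in WT and KO cells, and 3 genes were past 2-fold in WT cells. These scalings moved the median of all genes for re-stimulation by -0.29 and -0.26 (median) and by 0.30 and 0.26 (Cd3e). They moved the share of 2-fold calls that were higher in WT cells from 49.3% to 29.1% and 71.5%. Small re-stimulation differences, as of Stat2, Stat3, Stat5b, Stat6 and of Stat4 in WT cells, thus have no firm size. Stat4 ranged from 0.017 to 0.61 in WT cells. Stat2 ranged from 0.55 to 1.14 in WT cells and from -0.30 to 0.22 in KO cells. The mean over probes gave a median of 0.052 between the genotypes before re-stimulation and turned Stat5b after it from -0.14 to 0.14. With normexp and quantile normalization the dim probes of Stat5b and Stat6 were past 2-fold in no comparison. Counted past 1.5-fold, 1 gene differed between the genotypes before re-stimulation, and 4 and 2 for re-stimulation in WT and KO cells. Past 3-fold, 0 differed between the genotypes after it. Stat4 there ranged from -1.49 to -1.36. No paired analysis was possible because there was 1 array per condition, and the cause of these shifts was not tested beyond the scaling itself.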
